A study of Mus musculus with 22 samples.

Results

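Described here are 4 mature microRNAs (miRNAs) known from blood vessel endothelium: mmu-miR-126a-3p and mmu-miR-126a-5p, the arms of 1 hairpin, and mmu-miR-221-3p and mmu-miR-222-3p, which come from 1 gene cluster. They were taken by name from the 1881 mouse miRNAs on the array, and the rule used no measured value. The species prefix is left out from here on. RNA was measured on 22 one-colour Agilent arrays, 1 per sample, from male mice aged 8 weeks exposed to X-rays at 1.0 Gy per minute. Tissue of the small intestine was represented by 4 arrays at 0 Gy and 4 at 10 Gy, serum from heart blood by 2 at 0 Gy and 4 at 10 Gy, and feces by 4 at each dose. No strain, genotype or time of collection after exposure is stated in the labels. Whether each sample of a group came from its own animal is not stated, so p-values cover only a spread among samples that may be technical.

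In vertebrates miR-126 lies within an intron of Egfl7, a gene of vessel endothelium, and its 3p arm represses the signalling inhibitors Spred1 and Pik3r2, which keeps endothelial growth factor signalling and vessel integrity intact. The 5p arm is known in mouse endothelium for repressing Dlk1, an inhibitor of Notch signalling. In human cells miR-221 and miR-222 repress the receptor Kit in endothelium and the cell cycle inhibitor Cdkn1b, and in vascular smooth muscle they are known for promoting proliferation.

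Mature sequences in RefSeq (GRCm38.p6) were matched for 3 of the 4 miRNAs. They are shown first because the seed, bases 2 to 8 and here in capitals, is the part that pairs with target messenger RNAs. It sets miR-126a-3p apart from the shared seed of miR-221-3p and miR-222-3p. The other miRNA of the table with that shared seed, miR-1928, is given for comparison.
miR-126a-3p: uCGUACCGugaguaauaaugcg
miR-221-3p: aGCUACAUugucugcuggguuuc
miR-222-3p: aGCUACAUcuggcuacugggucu
miR-1928: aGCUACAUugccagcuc

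miR-126a-3p lies at chr2:26591402-26591423 on the plus strand, in a hairpin inside the span of Egfl7 (chr2:26581083-26592682). miR-221-3p lies at chrX:19146307-19146329 and miR-222-3p at chrX:19146901-19146923, both on the minus strand, with 504 bases between their hairpins. The mature forms of miR-221-3p and miR-222-3p are both 23 bases long, share their first 8 bases and are identical at 11 positions. miR-1928 comes from chr1:74206562-74206578 on the minus strand and was not detected on any of the 22 arrays. The strand opposite the miR-126a hairpin carries miR-126b, whose 5p arm (chr2:26591399-26591420) holds a run of 19 bases complementary to miR-126a-3p and is given for that reason.
miR-126b-5p: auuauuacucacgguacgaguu

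Each of the 4 miRNAs was measured by 2 probes of 15 spots each. The signal is the scanner's background-subtracted intensity in arbitrary units, averaged over spots and summed over probes, and it can fall below 0. Detection on an array required that 1 probe or more be well above background on at least 50% of its spots. Different miRNAs have different probes, so their levels cannot be compared, and where a ratio of miRNAs is given only its change between arrays can be read. The marker miRNAs of intestinal epithelium were all detected in intestine (8 of 8 on every array) and in feces (8 of 8), and none of the 8 was detected in serum, where 2 of 3 red-cell miRNAs were. Intestine, serum and feces each had a slide of their own, and on a slide the doses lay in different columns. The slide thus cannot be told apart from the sample type, nor the column from the dose.

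The 4 miRNAs did not share 1 pattern of detection. miR-126a-3p and miR-221-3p were detected on 8 of 8 intestine arrays, 0 of 6 serum arrays and 0 of 8 feces arrays. miR-222-3p was detected on 0 of 8 intestine arrays and 0 of 8 feces arrays, and on 3 of 6 serum arrays, which were the 2 at 0 Gy and 1 of 4 at 10 Gy. miR-126a-5p was detected on 2 of 8 intestine arrays, both at 10 Gy, and on no array of serum or feces. Thus miR-221-3p and miR-222-3p, which share a cluster and a seed, were each detected in the sample type where the other was not. The remaining arms and relatives on the array (miR-221-5p, miR-222-5p, miR-126b-3p and miR-126b-5p) were detected on none of the 22 arrays.

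**Figure D1:**
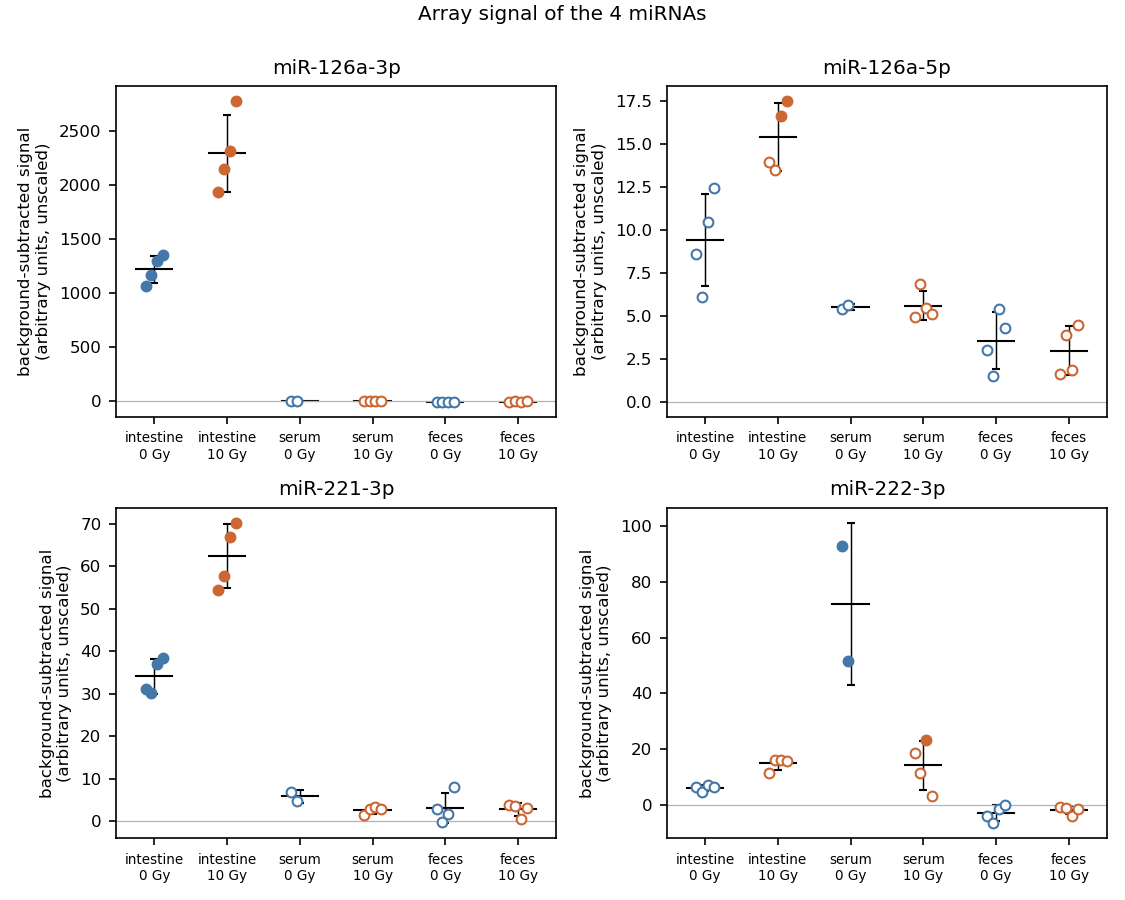
Background-subtracted signal (arbitrary units, unscaled, linear axes that differ between panels) of each miRNA in each of the 6 groups. Points are arrays, filled where the miRNA was detected and open where it was not, black lines are group means and bars are ± SD. miR-126a-3p and miR-221-3p stand above background in intestine and miR-222-3p in serum at 0 Gy.

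In intestine, miR-126a-3p gave signals of 1065, 1163, 1295 and 1346 at 0 Gy and of 1930, 2147, 2311 and 2773 at 10 Gy. The unscaled values of the doses did not overlap, and their ratio was 1.87-fold. How many of all miRNAs had no overlap in unscaled values is not given. With no scaling the median log2 change of all 335 tested was 0.62, and 186 were higher at an adjusted p below 0.05 (limma). The scaling value of each array (the 75th percentile of the 268 miRNAs found on all 8 intestine arrays) was itself 1.38-fold higher at 10 Gy (439 to 538 against 553 to 880), and 332 to 389 miRNAs were detected there against 285 to 300. These array-wide differences move with the dose, and their part in the result was not tested.

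After scaling, miR-126a-3p stood at 242%, 240%, 241% and 261% of the 75th percentile at 0 Gy (mean 246% ± 9.81, SD, n = 4) and at 349%, 325%, 263% and 418% at 10 Gy (339% ± 64.1, SD, n = 4). The lowest irradiated array, at 263%, lay just above the highest unirradiated one, so the doses did not overlap. The log2 change was 0.44 ± 0.18 (SE), a ratio of 1.36-fold with a 95% interval of 1.04 to 1.78. It did not pass at an adjusted p of 0.0627 (limma with Benjamini-Hochberg adjustment over 335 miRNAs). In bulk tissue, a change in the share of cells of a type and a change in RNA per cell cannot be told apart.

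miR-221-3p, the other miRNA detected throughout intestine, gave signals of 31.1, 30.2, 37.1 and 38.3 at 0 Gy and of 54.4, 57.8, 67.0 and 70.4 at 10 Gy, an unscaled ratio of 1.82-fold. After scaling it stood at 7.08%, 6.25%, 6.90% and 7.42% of the 75th percentile at 0 Gy and at 9.84%, 8.76%, 7.62% and 10.6% at 10 Gy. As for miR-126a-3p, the third irradiated array was the lowest of its dose and the last listed the highest, and the doses did not overlap. The log2 change of 0.41 ± 0.17 (SE), or 1.32-fold, did not pass (limma adjusted p 0.0687). Both probes of each miRNA gave nearly the same value, with log2 changes of 0.43 and 0.45 for miR-126a-3p and of 0.39 and 0.42 for miR-221-3p.

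Thus 0 of the 2 tested miRNAs passed in intestine with limma (2 at an unadjusted p below 0.05), where 41.8% of the 335 miRNAs tested did (87 higher and 53 lower). The scaled values of the doses did not overlap for both of them, and for 39.4% of all tested. The median change over all 335 was 0.16 on the log2 scale, so miR-126a-3p lay 0.28 and miR-221-3p 0.24 above it. The direction against 0 rests on the scaling. With the percentile taken over all miRNAs of the array the changes were -0.073 for miR-126a-3p and -0.11 for miR-221-3p, against a median of -0.35 for all tested. With no scaling they were 0.90 and 0.87, both at an adjusted p of 0.0010 (limma), against a median of 0.62. The distance from the median of all tested was 0.28 for miR-126a-3p and 0.24 to 0.25 for miR-221-3p under these 3 scalings. It was 0.28 and 0.20 with quantile normalization, and 0.59 and -0.0078 with normexp background correction. The calls over all 335 miRNAs split with the scaling too, into 21 higher and 86 lower with the percentile over all miRNAs, 55 and 66 with quantile normalization, 186 and 13 with no scaling, and 25 and 66 with normexp.

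**Figure D2:**
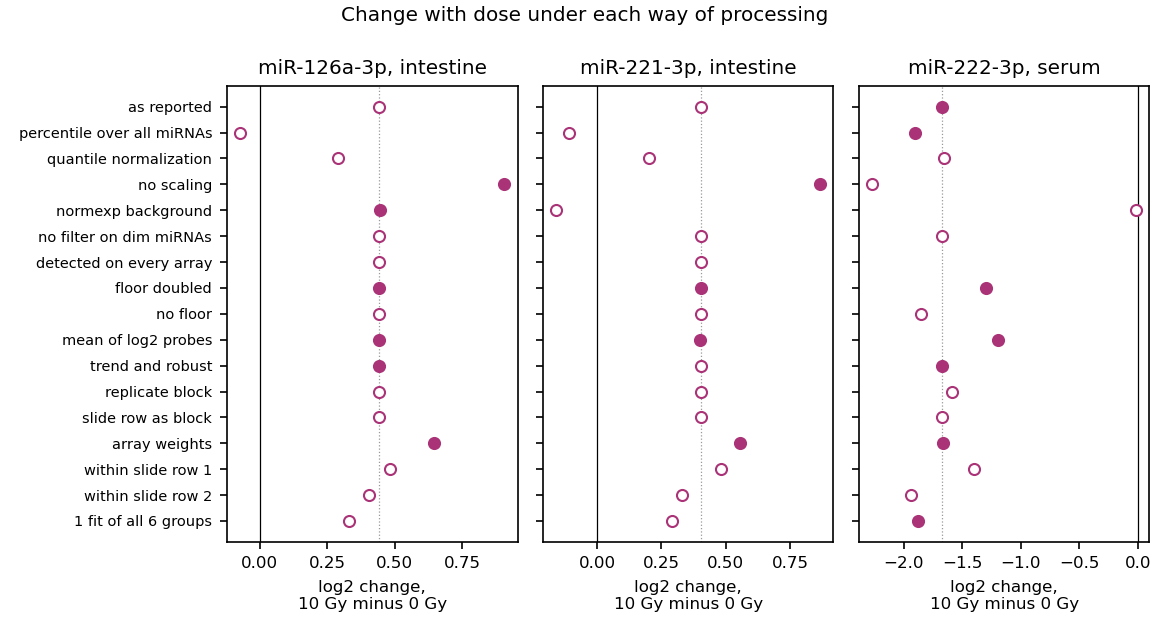
Log2 change from 0 Gy to 10 Gy (x axis) of miR-126a-3p and miR-221-3p in intestine and of miR-222-3p in serum under each way of processing (y axis). Points are filled where the adjusted p is below 0.05 and the dotted line marks the value as reported. In intestine the values run from -0.073 to 0.90 for miR-126a-3p and from -0.16 to 0.87 for miR-221-3p, and in serum from -2.27 to -0.013 for miR-222-3p.

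A ratio of a pair of miRNAs on the same array does not depend on the scaling. The log2 difference between miR-126a-3p and miR-221-3p was 5.16 ± 0.08 (SD, n = 4) at 0 Gy and 5.19 ± 0.08 (SD, n = 4) at 10 Gy. It changed by 0.04, with an exact two-sided permutation p of 0.543 over 70 orderings, where 0.0286 is the smallest p possible. The corresponding comparisons of miR-221-3p with miR-222-3p, and of the arms of the miR-126a hairpin, could not be made, because in no sample type were both of a pair detected on every array of a dose.

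Against marker miRNAs of other intestinal cell types on the same array, miR-126a-3p and miR-221-3p moved apart from the epithelial ones. miR-126a-3p amounted to 2.38%, 1.82%, 2.43% and 1.86% of the summed signal of the 8 epithelial miRNAs at 0 Gy, and to 3.88%, 4.54%, 5.34% and 4.54% at 10 Gy. miR-221-3p amounted to between 0.0473% and 0.0697% of that sum at 0 Gy and between 0.109% and 0.155% at 10 Gy, again with no overlap. Against the summed signal of 7 miRNAs of smooth muscle and mesenchyme, in contrast, the doses overlapped. There miR-126a-3p stood at 37.1% to 43.7% at 0 Gy and at 37.3% to 46.3% at 10 Gy, and miR-221-3p at 1.06% to 1.16% and at 1.05% to 1.17%. These ratios were not tested, and the share of all miRNAs without overlap in such a ratio was not computed. The median change of the epithelial miRNAs lay 0.81 on the log2 scale below that of all 335 tested. A miRNA with the median change of all tested would thus also rise against them, so the rise is not particular to miR-126a-3p and miR-221-3p.

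The summed level of the epithelial miRNAs ranged from 9899% to 13989% of the 75th percentile at 0 Gy and from 4917% to 9211% at 10 Gy, with 5 of 8 lower and none higher. That of the smooth muscle and mesenchyme miRNAs ranged from 550% to 702% at 0 Gy and from 670% to 935% at 10 Gy, with 3 of 7 higher (miR-214-3p, miR-199a-5p and miR-199a-3p) and none lower. Of all 335 miRNAs tested, 15.8% passed as lower and 26.0% as higher. With no scaling 0 of 8 epithelial miRNAs passed as lower (2 at an unadjusted p below 0.05, limma), and with the percentile over all miRNAs 0 of 7 muscle and mesenchyme miRNAs passed as higher (0 at an unadjusted p below 0.05), their median then being -0.27.

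Blood cell miRNAs in intestine changed in both directions, where 15.8% of all 335 tested passed as lower and 26.0% as higher. Of 6 miRNAs of leukocytes and platelets 3 passed as lower, miR-150-5p of lymphocytes at a log2 change of -2.32 ± 0.43 (SE, limma adjusted p 0.0014), miR-142a-3p at -1.04 ± 0.22 (adjusted p 0.0034) and its other arm, miR-142a-5p (adjusted p 0.0202). The 1 that passed as higher was miR-223-3p of neutrophils and other myeloid cells, at 1.20 ± 0.19 (adjusted p 0.00047). Their summed level overlapped between doses, at 233% to 390% of the 75th percentile at 0 Gy and 246% to 292% at 10 Gy. With no scaling 2 of the 6 passed as higher and 1 as lower, and with the percentile over all miRNAs 0 and 3. Of 2 red-cell miRNAs tested, miR-486a-5p passed as higher (0.66 ± 0.17, adjusted p 0.0114). It missed the threshold with the percentile over all miRNAs (0.15), with quantile normalization (0.20) and with normexp (-0.10). The part of tissue makeup in the values of miR-126a-3p and miR-221-3p was not tested.

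**Figure D3:**
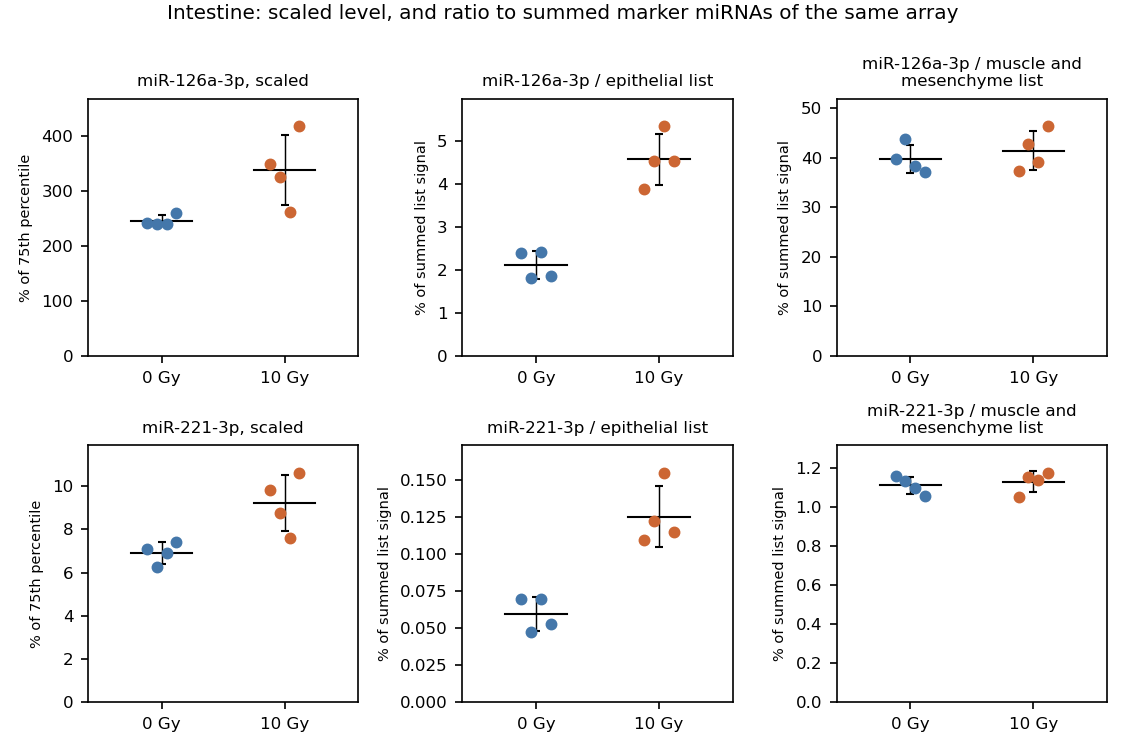
miR-126a-3p (top) and miR-221-3p (bottom) in intestine at 0 Gy and 10 Gy, as a percentage of the array's 75th percentile (left), of the summed signal of 8 epithelial miRNAs (middle) and of 7 smooth muscle and mesenchyme miRNAs (right) of the same array. Points are arrays (4 per dose), lines are means and bars are ± SD. The doses separate in the left and middle panels and overlap in the right ones.

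miR-126a-5p, the other arm, gave signals of 8.63, 6.12, 10.5 and 12.5 at 0 Gy and of 14.0, 13.5, 16.7 and 17.5 at 10 Gy. The signals did not overlap, but the miRNA was detected on only 2 of these arrays and was not tested. Scaled, it stood at 1.90% ± 0.474 (SD, n = 4) at 0 Gy and 2.28% ± 0.361 (SD, n = 4) at 10 Gy, and here the doses overlapped. miR-222-3p gave 6.32, 4.46, 7.11 and 6.44 at 0 Gy and 11.4, 16.2, 16.1 and 15.7 at 10 Gy in intestine, all not well above background, so no fold is given.

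Other miRNAs with known roles in endothelium and blood vessel growth did not move together in intestine. Of 26 on a list chosen with earlier results of these data known, 24 were tested, 6 passed as higher (26.0% of all 335 did) and 6 as lower (15.8% of all), and the median log2 change was -0.03 against 0.16 over all 335. The largest change among the higher ones was that of miR-132-3p, known for releasing Ras signalling in endothelium, at 1.29 ± 0.18 (SE, limma adjusted p 0.00015). miR-210-3p, induced by hypoxia, followed at 0.79 ± 0.18. The other 4 higher ones were miR-130a-3p and 3 miRNAs of the miR-23, miR-27 and miR-24 clusters, at log2 changes of 0.54 to 0.60. Also on the list, miR-23b-3p (-0.012) and miR-27b-3p (-0.073) did not pass (limma adjusted p 0.960 and 0.759). Among the lower ones, miR-378a-3p stood at -1.02 ± 0.20 and miR-31-5p at -0.71 ± 0.21. The remaining 4 (miR-17-5p, miR-19a-3p, miR-20a-5p and miR-92a-3p) belong to the proliferation-linked miR-17 to miR-92 cluster. miR-18a-5p of that cluster, also on the list, did not pass (-0.12, limma adjusted p 0.631). The changes of miR-126a-3p and miR-221-3p lay between those of miR-378a-3p and miR-132-3p. miR-210-3p turned to -0.094 (adjusted p 0.476) with normexp and missed the threshold with the percentile over all miRNAs (0.28) and with quantile normalization (0.51). miR-132-3p missed it with normexp (0.26, adjusted p 0.0950) and miR-31-5p with no scaling (-0.25, adjusted p 0.193). With no scaling the list held 14 higher and 1 lower, with the percentile over all miRNAs 1 higher and 6 lower, with quantile normalization 4 and 6, and with normexp 4 and 5.

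**Figure D4:**
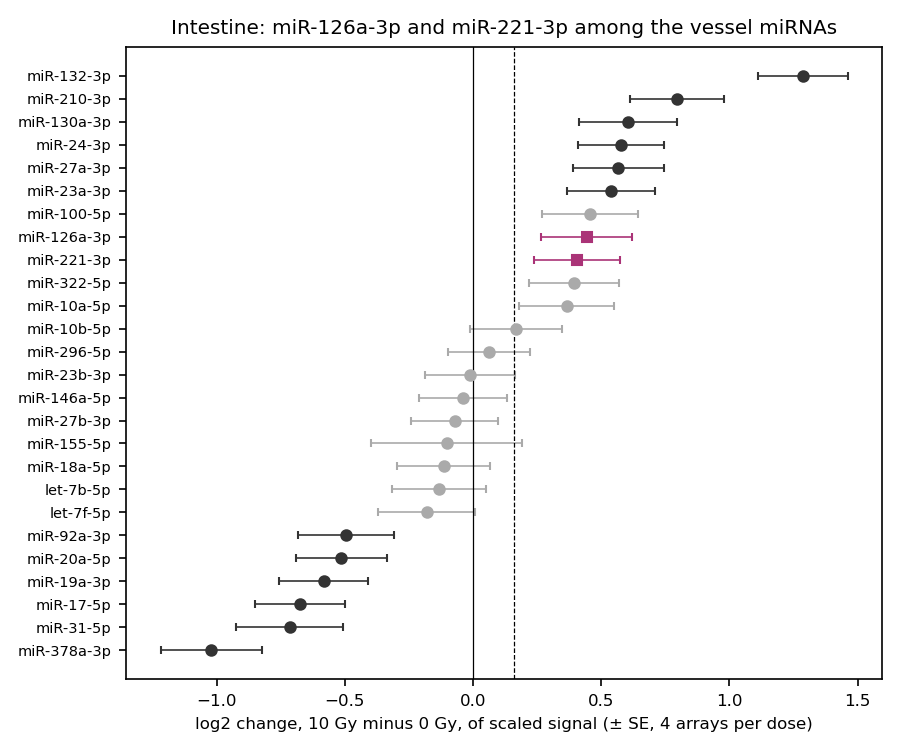
Log2 change from 0 Gy to 10 Gy in intestine (x axis, ± SE, 4 arrays per dose) of the 24 tested vessel miRNAs (circles, dark where the adjusted p is below 0.05) with miR-126a-3p and miR-221-3p (squares). The solid line marks 0 and the dashed line the median of all 335 miRNAs tested, 0.16. miR-126a-3p at 0.44 and miR-221-3p at 0.41 lie among the upper circles.

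By Pearson correlation of scaled log2 values over the 8 intestine arrays, among the 335 miRNAs tested there, miR-221-3p was the second most similar miRNA to miR-126a-3p (r = 0.971) and miR-126a-3p the second most similar to miR-221-3p. The closest to miR-126a-3p was miR-10a-5p (r = 0.976), and miR-322-5p was the third (r = 0.965). The closest to miR-221-3p was miR-199b-5p (r = 0.973), with miR-497a-5p at 0.971. These arrays share a slide, a scaling and the dose, so the values are descriptions. Of those partners, miR-199b-5p and miR-497a-5p passed as higher with dose, at 0.70 ± 0.19 and 0.65 ± 0.18 (limma adjusted p 0.0115 and 0.0135), and the changes of miR-10a-5p (0.36) and miR-322-5p (0.39) did not pass.

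In serum, miR-222-3p passed the test as lower at 10 Gy, where it was detected on 1 of 4 arrays. It entered the test, which required detection on 2 of the 6 arrays, through the 2 unirradiated arrays on which it is high. Its signals were 92.7 and 51.6 at 0 Gy, and 18.5, 11.5, 23.2 and 3.11 at 10 Gy. Scaled in the same way, by 121 miRNAs found on all 6 serum arrays, it stood at 17.9% and 23.1% at 0 Gy and at 6.03%, 7.62%, 8.96% and 2.43% at 10 Gy. Both unirradiated arrays lay above all 4 irradiated ones. The log2 change was -1.67 ± 0.35 (SE) at an adjusted p of 0.0436 (limma, 193 miRNAs). No fold is given, since 3 of the 4 irradiated values were not well above background and the lowest was raised to the floor. Without the filter, and so over all miRNAs, the adjusted p was 0.202. Both probes were detected on both unirradiated arrays, 1 of them on none of the irradiated arrays and the other on 1.

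miR-222-3p was the only one of the 4 miRNAs tested in serum, and 4.66% of the 193 tested there passed, 3.63% as lower, against a median change of -0.11. The doses did not overlap for 30.1% of them. The call is close to the threshold and rests on 2 unirradiated arrays. It passed in 1 of 6 fits that left out 1 array, the one without the third irradiated array (-1.84, adjusted p 0.0352). Without the first or the second unirradiated array the change was -1.85 (adjusted p 0.200) or -1.49 (adjusted p 0.401), and without the first, second or last irradiated array it was -1.64, -1.76 or -1.45 (adjusted p 0.0799, 0.0852 and 0.0569). With normexp background correction the change was -0.013 (adjusted p 0.961), and with no scaling -2.27 (adjusted p 0.121). Slide rows 1 and 2, each with 1 unirradiated and 2 irradiated arrays, gave -1.40 and -1.94 when fitted apart, and the change missed the threshold with the row as a block (adjusted p 0.0773).

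Both red-cell miRNAs tested in serum were also lower at 10 Gy. After scaling miR-451a, detected on 1 of the 4 irradiated arrays, changed by -3.41 ± 0.49 on the log2 scale (SE, limma adjusted p 0.0152). Its unscaled signals were 375 and 144 at 0 Gy and 11.4, 13.2, 31.6 and 2.40 at 10 Gy. Its scaled values of 3.70% and 1.88% on the first and last irradiated arrays were raised to the floor, so the size of its change depends on the floor. After scaling miR-486a-5p changed by -1.46 ± 0.25 (SE, limma adjusted p 0.0239). Its unscaled signals were 8698 and 4461 at 0 Gy and 2392, 1206, 1426 and 729 at 10 Gy. The remaining red-cell miRNA, miR-144-3p, was not detected in serum, and the summed level of the 3 ranged from 1754% to 2059% of the 75th percentile at 0 Gy and from 561% to 808% at 10 Gy. On the same array miR-222-3p amounted to 1.07% and 1.16% of the miR-486a-5p signal at 0 Gy and to 0.775%, 0.953%, 1.63% and 0.427% at 10 Gy, so this ratio overlapped between doses. Its ratio to miR-451a was higher at 10 Gy with no overlap, at 24.7% and 35.8% against 163%, 87.2%, 73.6% and 129%. Both miR-222-3p and miR-451a were detected on only 1 of the 4 irradiated arrays, and the ratios were not tested. With normexp the changes were -0.89 for miR-451a and -1.62 for miR-486a-5p, both passing, against -0.013 for miR-222-3p. With no scaling miR-486a-5p missed the threshold (-2.24, adjusted p 0.127). The 75th percentile itself was 517 and 224 at 0 Gy and 308, 151, 259 and 128 at 10 Gy. The part of red-cell RNA or of total signal in the change of miR-222-3p was not tested.

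**Figure D5:**
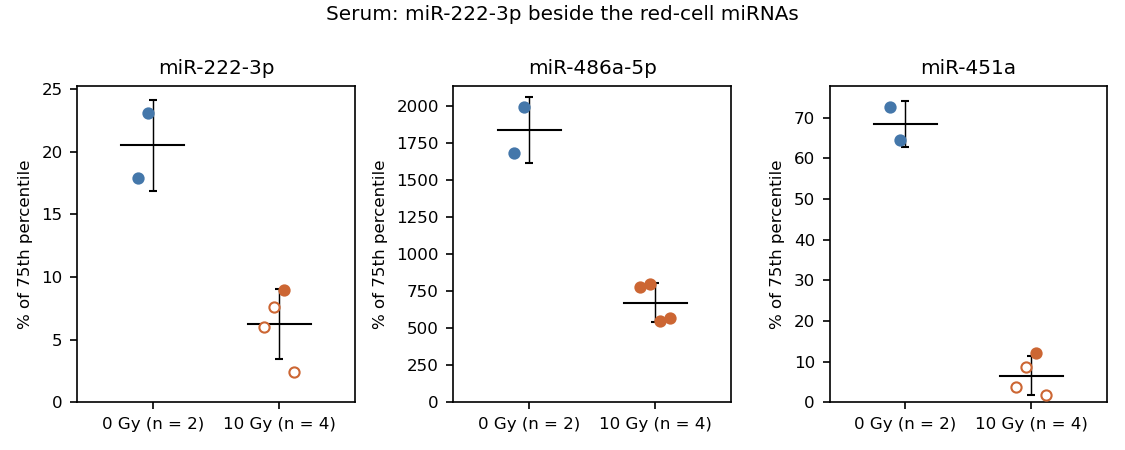
miR-222-3p, miR-486a-5p and miR-451a in serum at 0 Gy and 10 Gy as a percentage of the array's 75th percentile (linear axes that differ between panels). Points are arrays, filled where detected, lines are means and bars are ± SD. In each panel both arrays at 0 Gy lie above all 4 at 10 Gy.

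The other miRNAs gave no value above background in serum. Signals of miR-126a-3p ranged from -2.74 to -0.132 over the 6 serum arrays, those of miR-126a-5p from 4.95 to 6.85 and those of miR-221-3p from 1.47 to 6.91. Of the 26 vessel miRNAs, 5 were tested in serum and 0 passed with limma. At an unadjusted p below 0.05 there was 1, miR-24-3p, named after its values were seen, at a log2 change of 2.19 ± 0.52 (SE, adjusted p 0.0617). With normexp it passed (1.38, adjusted p 0.00014), the only one of the 5 to do so.

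In feces none of the 4 miRNAs was detected at either dose, so none was tested, and 7.54% of the 491 miRNAs tested there passed. Signals of miR-126a-3p lay between -5.53 and -2.57 over the 8 arrays, those of miR-126a-5p between 1.51 and 5.38, those of miR-221-3p between -0.257 and 8.02, and those of miR-222-3p between -6.64 and 0.0191. Of the vessel list 13 miRNAs were tested in feces and 0 passed with limma, with 2 at an unadjusted p below 0.05.

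Levels were set across sample types in 1 fit of all 6 groups, scaled by the 81 miRNAs detected on all 22 arrays. A fold against a group where a miRNA was not well above background is a lower bound, taken against the dimmest signal counted as above background there, and between slides it cannot be told apart from the slide. The p-values beside the bounds do not test them. They belong to the fit, where values below the floor were set to it. All serum and feces values of miR-126a-3p were at the floor, so those groups added no spread of their own. miR-126a-3p stood at 219% ± 38.7 (SD, n = 4) of the 75th percentile in intestine at 0 Gy and 288% ± 113 (SD, n = 4) at 10 Gy. At 0 Gy it was at least 44.1-fold higher in intestine than in serum (limma adjusted p 4.9e-14) and at least 427-fold higher than in feces (adjusted p 2.2e-15). At 10 Gy the bounds were 34.0-fold (adjusted p 8.8e-16) and 310-fold (adjusted p 1.3e-15). Bounds differ between serum and feces because the dimmest detected signal does, so no order of serum and feces can be read.

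miR-221-3p followed the same order with smaller bounds, since its signal lay nearer to the background. It stood at 6.14% ± 1.15 (SD, n = 4) in intestine at 0 Gy and at 7.81% ± 2.80 (SD, n = 4) at 10 Gy. At 0 Gy 1 of its probes was detected on all 4 intestine arrays and the other on 2 of 4, and the bounds from the first were at least 1.86-fold above serum (adjusted p 7.7e-08) and at least 18.0-fold above feces (adjusted p 1.9e-09). At 10 Gy the same probe gave at least 1.42-fold above serum (adjusted p 6.7e-10) and at least 12.9-fold above feces (adjusted p 4.7e-10). The dimmer probe, detected on all 4 arrays there, gave at least 7.58-fold above feces and a bound under 1 against serum, for which no fold is given. These are bounds, so no change with dose can be read from them.

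miR-222-3p had the opposite order. Unirradiated serum, at 13.1% ± 1.56 (SD, n = 2), was at least 2.64-fold above intestine (adjusted p 2.7e-07) and at least 27.8-fold above feces (adjusted p 4.5e-07). Irradiated serum stood at 4.03% ± 1.95 (SD, n = 4), with 1 of 4 arrays detected, so no fold against the other sample types is given at 10 Gy. At 0 Gy these 3 miRNAs passed between serum and intestine, where 46.5% of 749 miRNAs did. miR-126a-3p and miR-221-3p passed between feces and intestine, where 59.5% did. Each was detected in only 1 of the sample types compared, which all but fixed a difference, so these counts are no result beside those shares. miR-126a-5p, in the same fit, passed in neither comparison (limma adjusted p 0.686 and 0.171), nor did miR-222-3p between feces and intestine. At 10 Gy the background was 57.1% for serum and 58.9% for feces against intestine, and between feces and serum at 0 Gy it was 38.6%.

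The difference between sample types in the change with dose was tested in the same fit. For miR-222-3p the change in serum minus that in intestine was -2.43 ± 0.48 (SE, limma adjusted p 0.0031), where 7.74% of 749 miRNAs passed. The change in feces minus that in serum was 1.88 ± 0.48 (adjusted p 0.0236), where 5.07% passed. Since miR-222-3p was not well above background in intestine or feces, these sizes and their p-values depend on the floor set for dim signals. They do not compare measured changes of both sample types. For miR-126a-3p all serum and feces arrays were at the floor, so its difference from either (-0.33) is only its intestine change in this fit with the sign turned. miR-221-3p, at or near the floor there, gave -0.33 for serum and -0.29 for feces, and neither miRNA's values compare sample types. None of these 4 passed (limma adjusted p 0.496 to 0.676), and 10.9% of all miRNAs passed in the comparison of feces with intestine.

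Over all 22 arrays, where most of the variation lies between sample types and undetected values share a floor, the closest to miR-126a-3p among 749 miRNAs were miR-10a-5p, miR-143-3p and miR-195a-5p (Pearson r of 0.999 or more). miR-221-3p was closest to miR-100-5p, miR-350-3p and miR-99a-5p (r = 0.997), and its r with miR-126a-3p was 0.991. miR-222-3p was closest to miR-1955-3p (r = 0.910), miR-6938-5p (0.899) and miR-294-5p (0.894), and its r with miR-221-3p was -0.23. miR-126a-5p, mostly undetected, was closest to miR-29b-1-5p (r = 0.894), miR-129-2-3p (0.796) and miR-6976-3p (0.789), and its r with miR-126a-3p, the other arm of its hairpin, was 0.41.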

How the data were processed

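Each deposited file is 1 array's scan. The authors made the intensity values with Agilent Feature Extraction 11.5, per the submitters' processing notes, and it subtracts a background at each spot. These processed signals are linear and not normalized across arrays, per the file headers. The authors' series table, set against them, lay within 1% of them in every column, so it is linear and not centred, with column medians in arbitrary units from -1.55 to 2.1. No saturated spots were seen.

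Non-outlying spots were averaged per probe and probes summed per miRNA. Each array was scaled by a 75th percentile, taken over the miRNAs that every array of its sample type detected (intestine 268, serum 121 and feces 326). Dimmer values were set to a floor, the median over arrays of the lowest detected value, before log2. limma 3.58.1 (R 4.3.3) compared the doses in each sample type, keeping miRNAs whose number of detecting arrays reached the size of the smaller group, with Benjamini-Hochberg adjustment and a threshold of 0.05. On simulated data of the same size, 30 of 30 miRNAs changed by 1.5 on the log2 scale were recovered in intestine, 26 of 30 in serum and 15 of 30 in feces. In each sample type 2 unchanged miRNAs were called. The noise was drawn independently for each miRNA. Changes as small as the 0.44 and 0.41 seen in intestine were not simulated, so recovery at that size is not known. The 4 miRNAs are named in every comparison, and for each the 3 with the highest Pearson r. The number of miRNAs named from each list was not fixed. The 4 miRNAs and the lists were chosen with earlier results of these data known. The number of arrays limits the precision. Alternatives covered the scaling, background correction, filter, floor, probe summary, spread, blocks and each array left out.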

Additional observations from a re-analysis of the deposited data

Results flagged for a closer look

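In intestine at 0 Gy 1 array, the last listed, stood apart for miR-126a-3p, at a log2 scaled value of 1.38 against 1.26 to 1.28 on the other 3, a gap beyond Dixon's limit for 4 values. Of the 6 groups of 4 arrays that had a miRNA detected on at least 1 array, 1 held such an array, and chance gives about 1 in 20. Without that array the change with dose was 0.47 on the log2 scale (limma adjusted p 0.0931), against 0.44 with it.

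For miR-222-3p the differences between sample types in the change with dose passed with limma. The change in serum minus that in intestine was -2.43 on the log2 scale, and that in feces minus that in serum was 1.88. miR-222-3p was detected on 3 of 6 serum arrays and on no array of intestine or feces. These differences thus set its serum change against values at or near the floor, and they do not compare measured changes of both sample types. With normexp they turned to 0.32 and -0.12.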

How the results depend on the processing

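In intestine the changes of miR-126a-3p and miR-221-3p kept their direction in 15 and 14 of 16 alternatives and in all 8 fits that left out 1 array (0.34 to 0.56 and 0.33 to 0.49). They turned to -0.073 and -0.11 with the percentile over all miRNAs, and that of miR-221-3p to -0.16 with normexp. The cause was not tested. Both passed with no scaling (0.90 and 0.87), with the floor doubled (0.44 and 0.41), with the mean of log2 probes (0.44 and 0.40), with array weights (0.65 and 0.56) and without the third irradiated array (0.56 and 0.49), so that 2 passed in place of 0. With normexp (0.44) and with an intensity trend and robust fit (0.44), miR-126a-3p alone passed, a count of 1. Within slide rows 1 and 2 the changes were 0.48 and 0.40 for miR-126a-3p and 0.48 and 0.33 for miR-221-3p.

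In serum miR-222-3p kept its direction in all 15 alternatives and passed in 6. It lost the threshold, which left 0 passing, with quantile normalization (-1.66), no scaling (-2.27), normexp (-0.013), no filter on dim miRNAs (-1.67, since all miRNAs were then tested), no floor (-1.86), the slide row as a block (-1.67) and within slide rows 1 and 2 (-1.40 and -1.94). The fits that left out 1 array gave -1.85 to -1.45, with 0 to 1 passing. The no-floor and within-row alternatives, the arrays left out of the fit of all 6 groups, and the pair of miR-126a-3p and miR-221-3p were chosen after seeing the data.

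Same-numbered samples did not deviate together in every pair (correlations of -0.56, -0.02, 0.32 and 0.44 in intestine, 0.28 and 0.44 in serum). The labels state no pairing, and in intestine these few values cannot decide whether there was one. In serum both correlated best with their own number, a hint from the data, and 2 pairs are too few to decide. With the replicate number as a block miR-222-3p changed by -1.59 in serum (adjusted p 0.102) with 0 of 193 miRNAs passing (26 at an unadjusted p below 0.05, limma). Under that block the difference of feces minus serum for it was 1.84 (adjusted p 0.0682, 0 passing), and miR-126a-3p and miR-221-3p in intestine stayed at 0.44 and 0.41 (adjusted p 0.0696 and 0.0803).

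Between sample types, miR-126a-3p kept its order and its calls in all 7 alternatives. With normexp miR-221-3p in serum minus intestine at 10 Gy turned to 0.35, and 3 other differences of miR-221-3p and miR-222-3p missed the threshold (-0.38 and 0.36 for serum minus intestine at 0 Gy, -0.37 for feces minus intestine of miR-221-3p at 10 Gy). Then 1 miRNA passed in place of 3 (serum against intestine at 0 Gy) or of 2 (serum or feces against intestine at 10 Gy). These counts at 10 Gy leave out miR-222-3p, which was detected on 1 of 4 serum arrays there and on no intestine array. As reported, without normexp, its serum minus intestine difference at 10 Gy was 1.01 (limma adjusted p 0.0073), and it depends on the floor. Differences in the change with dose turned with normexp for miR-222-3p (0.32 for serum minus intestine and -0.12 for feces minus serum, 0 passing), miR-126a-3p (0.11, serum minus intestine) and miR-221-3p (0.73 for serum and 0.26 for feces minus intestine). With the percentile over all miRNAs that of miR-126a-3p became 0.073 in both and that of miR-221-3p 0.11 for feces minus intestine. With no scaling 3 passed for serum minus intestine and 2 for feces minus intestine. The feces minus serum difference of miR-222-3p left 0 passing with no filter (1.88), and was 1.45 to 2.14 over single arrays left out, missing the threshold without either unirradiated serum array, so 0 to 1 passed.

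The within-array difference of miR-126a-3p and miR-221-3p stayed between 0.0018 and 0.074 with each array left out. Over all miRNAs tested the calls ranged from 32 (no filter) to 199 (no scaling) around 140 in intestine (91 with normexp, 48 and 49 within rows), and from 0 (no filter, replicate block and within rows) to 24 (1 fit of all 6 groups) around 9 in serum, with 3 for no scaling and 5 for no floor. The planned floor of a fixed value of 1 was not run, as 1 is the 75th percentile after scaling, nor were the planned within-array pairs. Signals near background limit miR-126a-5p throughout, miR-221-3p outside intestine and miR-222-3p outside unirradiated serum.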
